A study of Mus musculus with 6 samples.

Results

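Caveolae are flask-shaped pits of the plasma membrane, and the 10 genes described here encode proteins of their coat and neck. They are the caveolins Cav1 and Cav2, the cavins Cavin1, Cavin2 and Cavin3, the EHD proteins Ehd1, Ehd2 and Ehd4, and the pacsins Pacsin2 and Pacsin3. They were taken by symbol from 24794 genes with read counts, each symbol matched a single row, and all 10 passed the filter that left 13779 genes for testing. Polyadenylated RNA had been sequenced from LLC cells, the Lewis lung carcinoma line, a transplantable tumour line of C57BL/6 mice. Cells transfected with miR-291-3 mimics gave 3 libraries, and cells transfected with a control mimic gave 3. The series' design text names the microRNA as miR-291a-3p, and the study asked what its overexpression does in these cells. The labels give neither the dose, nor the time after transfection, nor the sequence of the control mimic. The mature microRNA is not measured in polyadenylated RNA.

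Caveolin proteins insert into the inner leaflet of the membrane together with cholesterol, and cavin proteins assemble on them from the cytosol into the outer coat. The ATPase EHD2 sits at the neck and holds the pit at the surface, and pacsins are F-BAR proteins that bend the membrane there. Caveolae buffer membrane tension and gather receptors and signalling proteins, and they are abundant in the lung, in endothelium, in fat cells and in muscle.

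Depth was 25376993 to 32963986 counts per library, and the biological coefficient of variation was 2.02% over all genes tested. Values in CPM are read counts scaled to library size (edgeR's cpm with TMM factors), and FPKM values, the authors' own, are used where genes are compared with each other. Of all genes tested, 49.1% passed the threshold (edgeR's quasi-likelihood test with Benjamini-Hochberg adjustment, adjusted p under 0.05), with 24.3% risen and 24.8% fallen. With total counts in place of TMM scaling, 2341 genes rose and 4444 fell, against 3349 and 3423. The labels do not state whether replicate libraries came from separate cultures, and the tests then measure a spread that may be technical. In bulk RNA, fewer cells that express a gene and less of its RNA per cell cannot be told apart.

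The caveolar genes were chosen by their log2 changes in this same comparison, Cavin3 and Ehd2 being already known to be low, so their changes are a description and carry no p-value. Of the 10, 6 fell and 2 rose past the threshold, beside the 49.1% of all genes that passed it. The groups of 3 libraries did not overlap in CPM for 8 of the 10, as for 54.9% of all genes tested. The median log2 change, mimic over control, was -0.17 for the 10 genes and -0.01 for all genes tested.

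The sequences shown are the microRNA and its seed matches in the 3' UTRs of the 10 genes, and whether a match acts on its gene was not tested. The RefSeq entry for mature miR-291a-3p (GRCm38.p6, chr7:3218968-3218989, plus strand) has 22 bases, shown with its seed, bases 2 to 8, in capitals. The same seed is carried in that table by miR-294-3p, miR-295-3p, miR-302b-3p and miR-302d-3p.
miR-291a-3p: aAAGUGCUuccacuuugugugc

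An 8mer match is AGCACTTA, a 7mer-m8 match is AGCACTT, a 7mer-A1 match is GCACTTA and a 6mer is GCACTT. They were read on the sense strand of each transcript, in GENCODE M21 transcripts of GRCm38, whereas the deposited values rest on GRCm39. Among 11585 tested protein-coding genes with a 3' UTR, 3.9% had an 8mer as their best match, 15.1% a 7mer-m8, 3.43% a 7mer-A1 and 12.8% a 6mer. The best match was an 8mer in Cavin3 and Ehd2, a 7mer-m8 in Ehd4, and a 6mer in Cav1 and Pacsin2. No match was found in the 3' UTRs of Cav2, Cavin1, Cavin2, Ehd1 and Pacsin3. The sites of 7 or 8 bases, found in Cavin3, Ehd2 and Ehd4, are shown, each in 30 bases, 5′ to 3′, with the match in capitals.
Cavin3 8mer: aaataagtacttatagagtgcAGCACTTAc
Ehd2 first 8mer: ccacaccagacattcagtgaaAGCACTTAt
Ehd2 7mer-m8: tgcagtcctggggtatgtacccAGCACTTc
Ehd2 other 8mer: gccccatccagatatttattgAGCACTTAc
Ehd4 7mer-m8: taagagctcacacccatttcgcAGCACTTg

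The Cavin3 site lies on the minus strand at chr7:105480748-105480755, in the exonic 3' UTR, at bases 66 to 73 of a UTR of 738 bases. Ehd2 has 3 such sites within its first 562 bases of 3' UTR, out of 3283. The first 8mer, at chr7:15950053-15950060, covers UTR bases 181 to 188. The 7mer-m8, at chr7:15949752-15949758, covers bases 483 to 489, and the other 8mer, at chr7:15949679-15949686, covers bases 555 to 562. A UTR with 2 or more 8mers was found in 17 of the 11585 genes (0.147%). The Ehd4 site, at chr2:120089832-120089838, lies at bases 1310 to 1316 of 1973. In the 30 bases on each side of the match, the A and T content was 60% in Cavin3 and 46.7% at each of these sites in Ehd2 and Ehd4. Coding sequences and 5' UTRs were searched only in the transcript of each gene with the longest coding sequence. There, the coding sequence held a 7mer-m8 match in Pacsin2 and a 6mer in Pacsin3, and the 5' UTRs held no match.

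**Figure D1:**
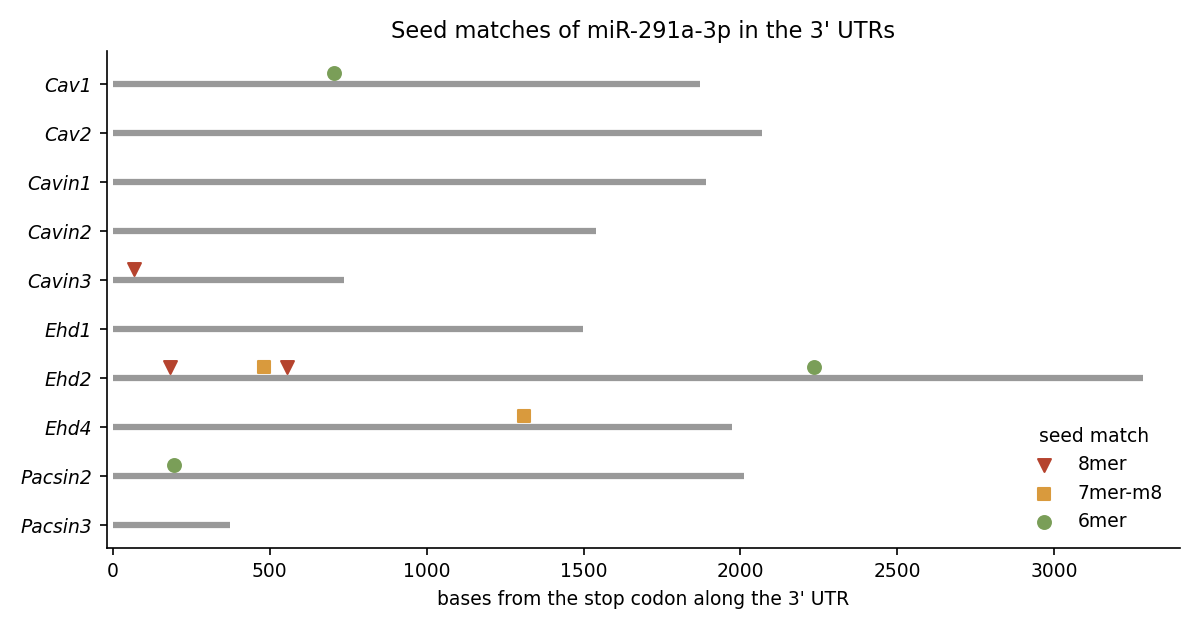
Seed matches of miR-291a-3p along the 3' UTRs of the 10 genes (x axis, bases from the stop codon; one line per gene, as long as its 3' UTR in the transcript that has the longest coding sequence). Triangles are 8mers, squares 7mer-m8 and circles 6mers; Ehd2 holds 4 matches, 3 of them within its first 562 bases.

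Both caveolins fell by small amounts. Cav1 encodes the main structural caveolin outside muscle. It had 227, 229 and 230 CPM in the mimic libraries, against 273, 275 and 275 CPM in the control libraries. All mimic libraries were below all control libraries, and the log2 change was -0.26 ± 0.02 (SE), a fall of 16.6%. Cav2, whose protein forms mixed oligomers with caveolin-1, had 93.0, 96.1 and 97.2 CPM in mimic libraries and 103, 111 and 110 CPM in control libraries. Its groups were separate too, with a log2 change of -0.18 ± 0.03. The ratio of Cav2 to Cav1 on the FPKM scale was 0.431 ± 0.00728 in mimic and 0.406 ± 0.0145 in control libraries (SD, n = 3 each), with ranges that did not overlap.

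The cavins went in opposite directions. Cavin1, which caveolae need to form, rose: it had 396, 390 and 402 CPM in mimic libraries, against 354, 344 and 343 CPM in control libraries, a log2 change of 0.19 ± 0.02 and 14.2% above control. Cavin2, whose protein can bend membrane into tubes, had 11.5, 9.68 and 10 CPM in mimic libraries and 18.3, 19.6 and 20.5 CPM in control libraries. Its log2 change was -0.91 ± 0.07, so that its level was 1.88-fold higher in control. The 3' UTR of Cavin2, of 1538 bases, held no match of any kind. Of all genes tested, 230 had a lower log2 change.

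Cavin3 encodes a cavin first known as a protein that binds protein kinase C delta. It had 361, 409 and 417 counts in the mimic libraries and 1366, 1257 and 1498 in the control libraries. Scaled, these were 14.5, 14.8 and 14.6 CPM in mimic against 45.4, 43.6 and 44.5 CPM in control. The mimic libraries lay close together and far below every control library. The log2 change was -1.60 ± 0.05, or 3.04-fold higher in control, and 32 of 13779 genes had a lower one. A gene model on the opposite strand, Gm45667, shares 374 exon bases with Cavin3 in GENCODE M21. It had 6, 7 and 8 counts in mimic and 26, 15 and 26 counts in control libraries. Whether the counting used strand is not given, so reads of the 2 genes cannot be told apart there. Gm45667 held few counts beside Cavin3 and, like Cavin3, had fewer in every mimic library than in any control library. The effect of the overlap on the Cavin3 counts was not tested.

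The EHD genes differed among themselves. Ehd2, which encodes an EHD protein of the caveolar neck, had 998, 1007 and 1098 counts in the mimic libraries and 2599, 2515 and 2956 in the control libraries. These were 40, 36.4 and 38.6 CPM in mimic and 86.3, 87.2 and 87.9 CPM in control. Every mimic library was far below every control library. The log2 change was -1.19 ± 0.04, or 2.28-fold higher in control, and 94 genes had a lower one. Falls of at least 2-fold past the threshold were seen for Cavin3 and Ehd2, 2 of the 10, and for 1.32% of all genes tested.

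Ehd1, which acts in recycling from endosomes to the surface, fell slightly. It had 154, 151 and 152 CPM in mimic libraries, against 163, 158 and 156 CPM in control libraries, with a log2 change of -0.06 ± 0.02. That call was lost in 6 of 14 alternatives, among them without mimic replicate 2 or 3 and without control replicate 1 or 2. Ehd1 did not pass at an adjusted p under 0.01 either. Ehd4, a relative found on early endosomes, had 131, 127 and 130 CPM in mimic libraries and 131, 133 and 130 CPM in control libraries. These groups overlapped, and its log2 change of -0.02 ± 0.03 did not pass, with a 7mer-m8 match in its 3' UTR. It passed only with total counts, of the 14 alternatives.

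Pacsin2, the pacsin that shapes caveolae outside muscle, rose slightly. It had 114, 109 and 110 CPM in mimic libraries, against 99.8, 104 and 106 CPM in control libraries, with a log2 change of 0.10 ± 0.03. That call was lost with total counts and with limma on FPKM at either pseudocount. Pacsin3, found at caveolae of muscle, had 15.0, 12.5 and 13.2 CPM in mimic libraries and 14.8, 15.4 and 15.3 CPM in control libraries. The groups overlapped through mimic replicate 1, and its log2 change of -0.17 ± 0.07 did not pass. Without that library it did, at -0.23. It also passed with total counts, under a minimum of 2 CPM in 3 libraries and with the replicate number as a block. Pacsin3 shares 42 exon bases with Gm17281 on the opposite strand, a model not analysed here.

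**Figure D2:**
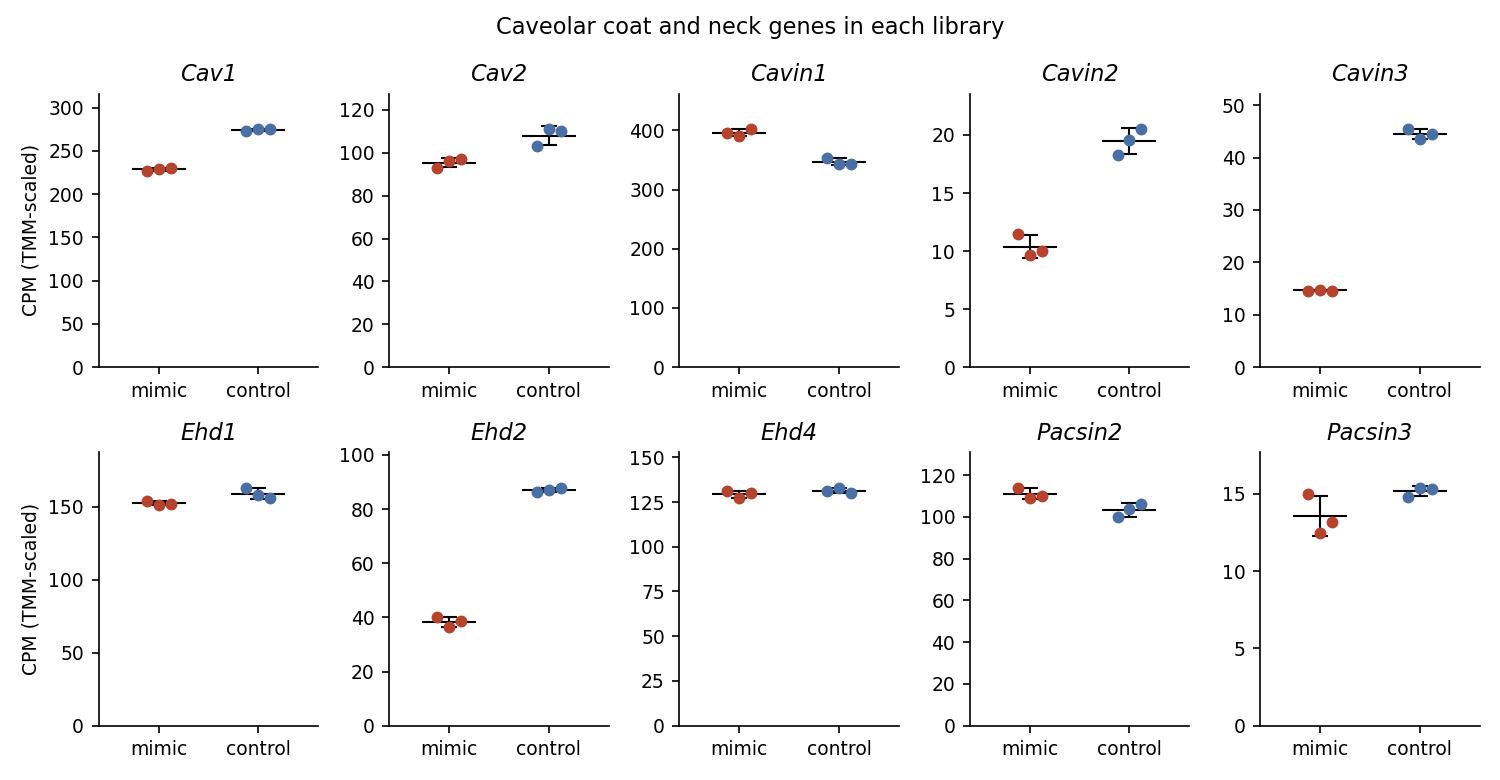
CPM of each gene by library (y axis from 0, TMM-scaled CPM; 3 mimic libraries left, 3 control libraries right; bars are the mean ± SD). Cavin3, Ehd2 and Cavin2 show wide gaps between the groups, Cav1, Cav2, Cavin1, Ehd1 and Pacsin2 narrow ones, and Ehd4 and Pacsin3 overlap.

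Set against the seed matches, the 2 genes with an 8mer had the lowest log2 changes of the 10, -1.60 and -1.19. The gene with a 7mer-m8, Ehd4, had -0.02. The genes with a 6mer, Cav1 and Pacsin2, had -0.26 and 0.10. Those with no match ranged from -0.91 in Cavin2 to 0.19 in Cavin1. These are descriptions over 10 genes chosen with their changes known.

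**Figure D3:**
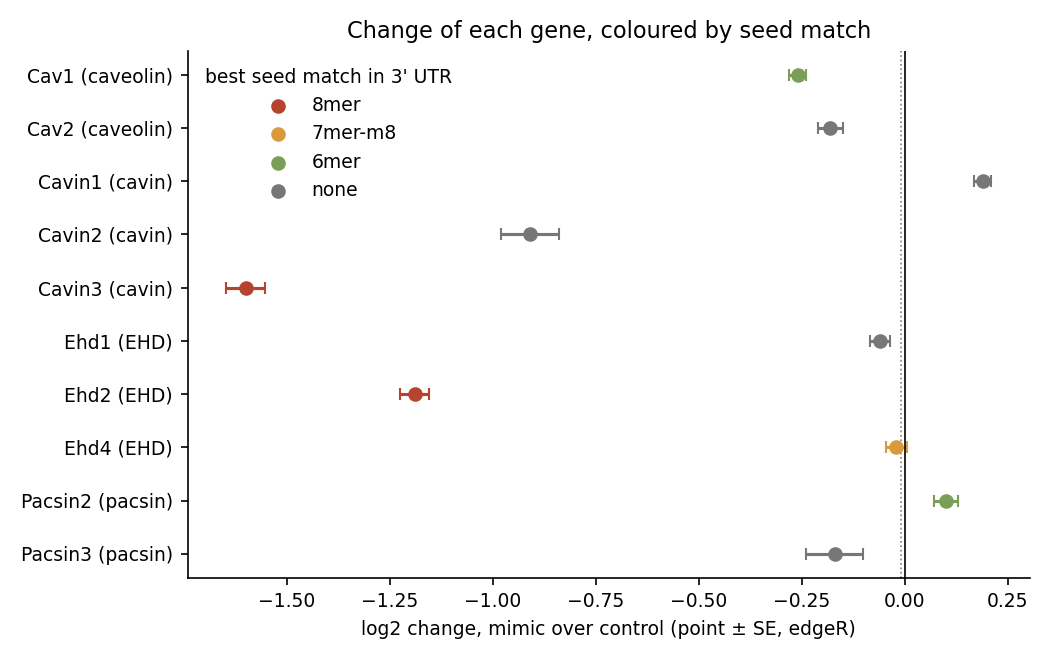
Log2 change of each gene, mimic over control (x axis; point ± SE from edgeR, 3 libraries a group), coloured by the best seed match in its 3' UTR; the dotted line is the median of all genes tested, -0.01. The 8mer genes Cavin3 and Ehd2 lie at -1.60 and -1.19, and Cavin2, with no match, lies at -0.91.

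Per length, Cavin1 was the highest of the 10 in both groups, at 95.6 ± 0.456 FPKM in mimic and 85.8 ± 1.57 FPKM in control libraries (SD, n = 3 each). Cav1 followed at 57.5 ± 0.644 FPKM in mimic and 70.6 ± 0.493 FPKM in control. The ratio of Cavin1 to Cav1 was 1.67, 1.64 and 1.68 in the mimic libraries and 1.25, 1.2 and 1.2 in the control libraries. The ratio was higher in every mimic library than in any control library.

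Cavin3 ranked 7 in mimic libraries at 7.62 ± 0.139 FPKM, behind Pacsin2, and 6 in control libraries at 23.8 ± 0.398 FPKM, ahead of Pacsin2. In mimic libraries the order of FPKM was Cavin1, Cav1, Ehd1, Ehd4, Cav2, Pacsin2, Cavin3, Ehd2, Cavin2 and Pacsin3. Neighbours in that order were separate in their ranges, except Cavin2 (2.77 to 3.26 FPKM) and Pacsin3 (2.53 to 3.00 FPKM). In control libraries the neighbours that overlapped were Ehd4 (28.78 to 29.63 FPKM) and Cav2 (27.34 to 29.60 FPKM), and Cavin2 at 5.65 ± 0.309 FPKM stood above Pacsin3 at 3.11 ± 0.0702.

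Within the cavins and the EHD proteins, the genes that fell most had smaller shares of the family's level in mimic libraries. These shares restate the changes given above. Cavin3 made up 7.18% ± 0.151 of the FPKM sum of the 3 cavins in mimic libraries and 20.6% ± 0.177 in control libraries. Cavin2 made up 2.78% ± 0.255 in mimic and 4.91% ± 0.332 in control, and Cavin1 90.0% ± 0.216 in mimic and 74.5% ± 0.394 in control. The sum of the cavins itself differed less, at 106 ± 0.331 FPKM in mimic and 115 ± 1.58 FPKM in control libraries, with Cavin1 higher and the other 2 lower in mimic.

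Ehd2 made up 9.25% ± 0.292 of the FPKM sum of Ehd1, Ehd2 and Ehd4 in mimic libraries, against 18.3% ± 0.314 in control libraries. That sum was 70.0 ± 0.953 FPKM in mimic and 82.3 ± 0.9 FPKM in control. The caveolins together had 82.2 ± 1.16 FPKM in mimic and 99.3 ± 1.66 FPKM in control. The pacsins together had 22.2 ± 0.699 FPKM in mimic and 21.8 ± 0.615 FPKM in control, with groups that overlapped. On the FPKM scale, unlike in CPM, the 3 mimic and 3 control libraries did not overlap for Ehd4 and Pacsin3. The share of all genes without overlap on that scale was not computed. The ratio of group means in FPKM was 0.959 for Ehd4 and 0.872 for Pacsin3, against 0.984 and 0.894 in CPM. It was lower in FPKM than in CPM for each of the 10 genes. With limma on log2(FPKM + 1), 2323 of all genes tested rose and 3508 fell.

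**Figure D4:**
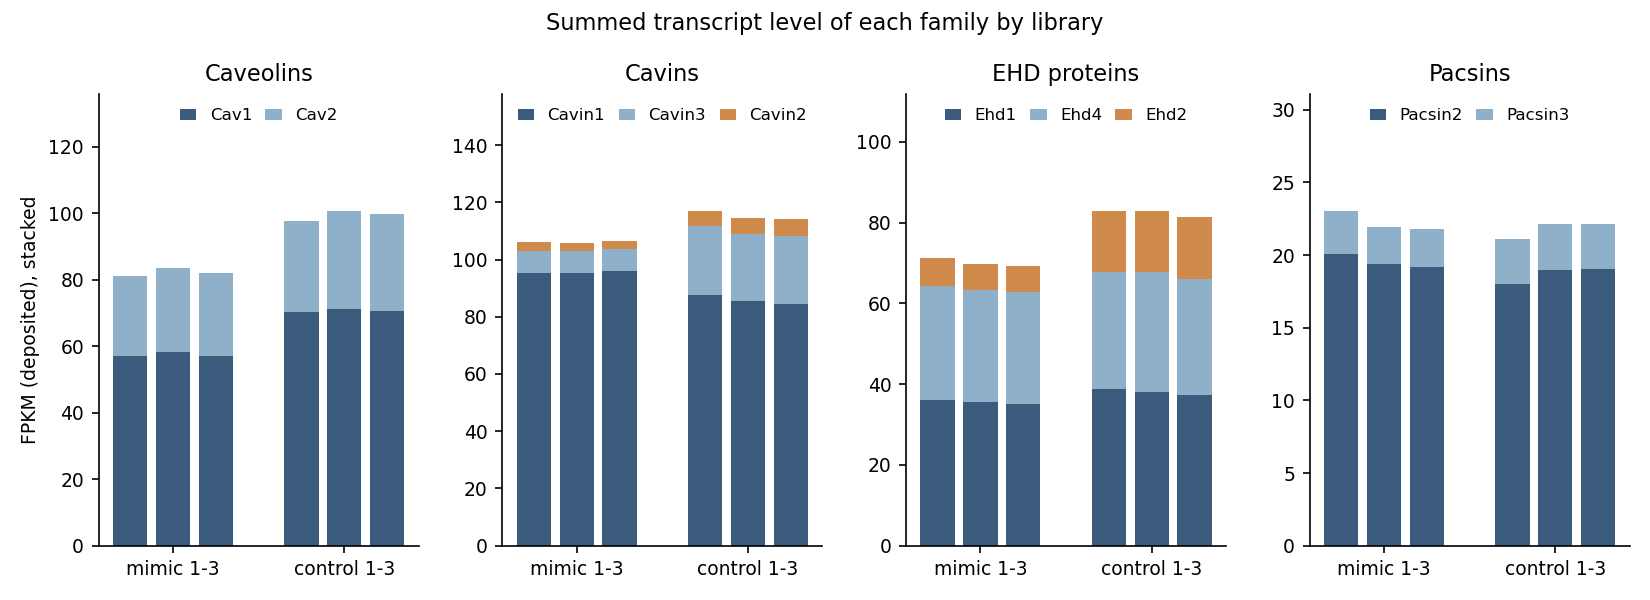
Deposited FPKM of each family, stacked by gene (y axis; one bar per library, mimic 1 to 3 left and control 1 to 3 right). Cavin3 and Ehd2 take a smaller part of each mimic bar (7.18% and 9.25% on average) than of each control bar (20.6% and 18.3%).

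The other genes of these families were at or near the detection limit. The muscle caveolin Cav3 and Ehd3 had 0 counts in each mimic library and 2 counts in all in the control libraries. A count of 0 allows up to 0.118 CPM in the smallest library, and such limits cover counting error only. Pacsin1, the neuronal pacsin, had 10 counts in all in mimic and 12 in control libraries. Cavin4, the muscle cavin, had 17, 19 and 15 counts in mimic and 13, 12 and 10 counts in control libraries. It passed the filter, and its log2 change of 0.73 ± 0.32 did not pass the test (adjusted p = 0.0633, edgeR, and 0.0352 to 0.252 over the alternatives). It passed with limma on FPKM at either pseudocount.

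Genes whose products act on or beside the coat mostly moved little, and in both directions. Their list includes Cavin4, whose log2 change of 0.73, not past the threshold, was its highest, and the lowest was -0.23. Of 15 tested caveola partners, 4 rose and 4 fell, and their median log2 change was 0.04, beside 49.1% called and a median of -0.01 over all genes. Flna, the actin crosslinker that ties caveolin-1 to actin, had 922 ± 12.9 CPM in mimic and 836 ± 8.36 CPM in control libraries (SD, n = 3 each), a log2 change of 0.14 ± 0.02 (adjusted p = 8.85e-08, edgeR). Src, a kinase that phosphorylates caveolin-1, rose 1.21-fold (adjusted p = 2.19e-07, edgeR). Stx6, a syntaxin that carries caveolin-1 to the surface, had a log2 change of -0.21 ± 0.04 (adjusted p = 5.54e-05, edgeR) and a 7mer-m8 match.

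An 8mer was found in 4 of the 15 tested partners, beside 3.9% of the genes scanned. Of these 4, 2 fell, beside 24.8% of all genes tested. The share of all genes with an 8mer that fell was not computed. Prkca, the kinase PKC alpha, had 33.2 ± 0.415 CPM in mimic and 39.0 ± 2.35 CPM in control libraries, a log2 change of -0.23 ± 0.05 (adjusted p = 7.12e-05, edgeR). Micall1, which works with EHD1 on recycling tubules, had -0.22 ± 0.05 (adjusted p = 0.00021, edgeR). Prkcd, the kinase that cavin-3 binds, had 0.04 ± 0.04 (adjusted p = 0.481, edgeR), with 42.5 ± 1.95 CPM in mimic and 41.4 ± 1.04 CPM in control. Snap29, a SNARE protein that EHD1 binds, had 0.07 ± 0.06 (adjusted p = 0.295, edgeR). An 8mer stood in partners with log2 changes from -0.23 to 0.07. It also stood in Cavin3 and Ehd2, chosen as already known to be low, with -1.60 and -1.19.

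Receptors, transporters and other proteins reported in caveolae mostly rose by small amounts. Of 17 tested, 10 rose and 1 fell, beside 24.3% risen and 24.8% fallen of all genes tested, with a median log2 change of 0.16. The cationic amino acid transporter Slc7a1 had 210 ± 5.44 CPM in mimic and 169 ± 2.28 CPM in control libraries, a log2 change of 0.31 ± 0.02 (adjusted p = 2.35e-12, edgeR). The integrin subunit Itgb1, the growth factor receptor Pdgfrb and the lipoprotein receptor Scarb1 rose 1.14-fold, 1.25-fold and 1.13-fold. The single gene that fell was the TGF-beta receptor Tgfbr2, which holds an 8mer, with a log2 change of -1.04 ± 0.05 (adjusted p = 3.76e-16, edgeR). The count depends on the setting, with 4 risen and 1 fallen with limma on FPKM at either pseudocount, 6 and 1 with DESeq2, and 5 and 2 with total counts. A 7mer-m8 was the best match in 3 other genes of the list. Of these Igf1r and Tgfbr1 rose 1.08-fold and 1.12-fold, and Egfr did not pass (log2 change 0.36 ± 0.24, adjusted p = 0.229, edgeR). The call of Tgfbr1 was lost in 7 of 14 alternatives, among them without mimic replicate 1 or 2 and without control replicate 3, and that of Igf1r in 4. Neither gene passed at an adjusted p under 0.01.

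Genes for the lipids that caveolae gather gave 2 risen and 4 fallen of 14 tested, with a median of 0.00, so that 42.9% passed beside 49.1% of all genes. The fallen were 2 with RLE size factors and without any single mimic library or control replicate 2, and 1 with DESeq2. Pip5k1a, a kinase that makes phosphatidylinositol 4,5-bisphosphate, rose 1.18-fold, and the phosphatidylserine synthase Ptdss2 rose 1.21-fold. The cholesterol carrier Npc2 had 156 ± 1.87 CPM in mimic and 207 ± 5.05 CPM in control libraries, a log2 change of -0.41 ± 0.02 (adjusted p = 5.63e-15, edgeR). The only 8mer of the list was in Sptlc2, a subunit of the enzyme that starts sphingolipid synthesis, which did not pass (log2 change -0.01 ± 0.03, adjusted p = 0.804, edgeR).

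The clathrin coat, the other main coat of the cell surface, had 8 risen and 7 fallen of 24 tested and a median of 0.02, beside 24.3% risen and 24.8% fallen of all genes. The split depends on the setting, with 5 risen and 9 fallen with total counts, 6 and 9 with limma on FPKM, and 7 and 3 with DESeq2. The fallen were 3 without mimic replicate 2 or 3 and 4 without control replicate 1. The clathrin light chain Clta rose 1.14-fold, and Bin1, a BAR protein, had 235 ± 7.69 CPM in mimic and 176 ± 2.28 CPM in control libraries (log2 change 0.42 ± 0.02, adjusted p = 2.95e-15, edgeR). Itsn2, a scaffold of clathrin pits with an 8mer, and the dynamin Dnm1 had -0.39 ± 0.03 and -0.49 ± 0.06 (adjusted p = 1.78e-11 and 7.7e-08, edgeR). Itsn1, a related scaffold that also holds an 8mer, did not pass (log2 change 0.04 ± 0.03, adjusted p = 0.294, edgeR). The log2 changes of this list ran from -0.49 to 0.42.

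F-BAR proteins, the wider family of the pacsins, gave 1 risen and 5 fallen of 10 tested, with a median of -0.11, beside 24.3% risen and 24.8% fallen of all genes. With DESeq2 1 rose and 2 fell. Fnbp1l had 44.2 ± 0.126 CPM in mimic and 58.5 ± 0.839 CPM in control libraries, a log2 change of -0.40 ± 0.04 (adjusted p = 3.85e-11, edgeR), and Trip10 rose 1.16-fold. Genes of clathrin-independent uptake gave 3 risen and 3 fallen of 10, or 60% passed beside 49.1% of all genes. The flotillins, which mark other membrane domains, parted: Flot1 had 46.2 ± 1.9 CPM in mimic and 38.6 ± 0.728 CPM in control, and Flot2 had 35.9 ± 1.03 CPM in mimic and 40.9 ± 0.672 CPM in control (adjusted p = 2.05e-06 and 0.000232, edgeR).

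**Figure D5:**
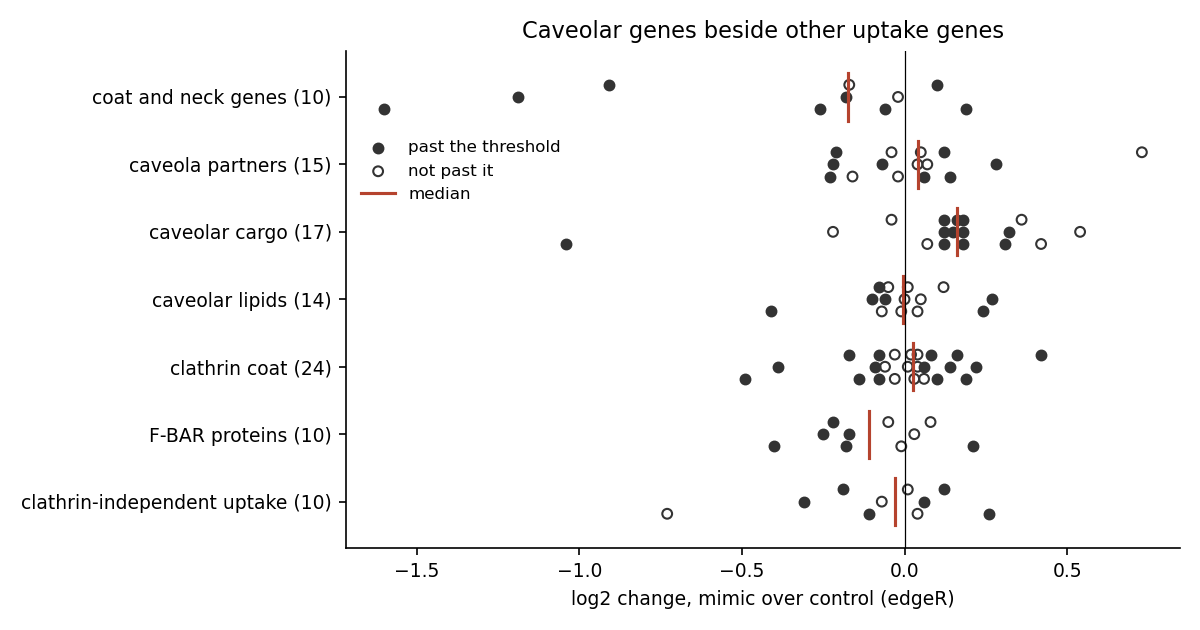
Log2 change, mimic over control (x axis), of the 10 coat and neck genes and of the tested genes of 6 other lists (rows, with the number of genes in brackets); filled points passed the threshold, open points did not, and red bars are medians. Cavin3, Ehd2, Cavin2 and the receptor gene Tgfbr2 lie lowest among genes past the threshold. The coat and neck genes were chosen with their changes known.

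The genes whose profiles over the 6 libraries lay closest to those of 4 caveolar genes were sought among 8755 genes of at least 10 CPM, by the root mean square difference of log2 CPM centred on each gene's mean. For Cavin3 the nearest was Rpia, an enzyme of the pentose phosphate pathway, at 0.104, followed by Ehd2 at 0.215 and the growth factor gene Gdf11 at 0.230. For Ehd2 the nearest were the epoxide hydrolase gene Ephx1 at 0.032, Gdf11 at 0.039 and Mxd3 at 0.046. Cav1 had Mtch1, Rhoc and Tagln2 within 0.013, and Cavin1 had 9130401M01Rik, Pgk1 and Mnat1 within 0.013. All distances rest on 2 groups of 3 libraries that share the same contrast, so they largely restate the log2 changes. Those were -1.61 for Rpia, -1.19 for Ehd2 and -1.16 for Gdf11. The neighbours of Cavin3 lay further off than those of the other 3 genes, and only 32 of 13779 genes had a lower log2 change than Cavin3.

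Markers of endothelium, fat cells and smooth muscle, which are rich in caveolae, were low. Pdgfra and Pdgfrb of the fibroblast markers and Krt8 of the lung epithelium markers were not. Of 6 endothelial markers, 5 had a row of counts, and these summed to 0.635 to 1.06 CPM in mimic and 0.483 to 0.743 CPM in control libraries. Only 1 was tested, and it did not pass. The 4 adipocyte markers summed to 0.146 to 0.238 CPM in mimic and 0.265 to 0.386 CPM in control, with none tested. The 5 smooth muscle markers summed to 2.86 to 3.35 CPM in mimic and 2.35 to 2.68 CPM in control, with Acta2 risen. Leukocyte markers summed to 2.54 to 2.98 CPM in mimic and 3.00 to 4.21 CPM in control, with none past the threshold. Fibroblast markers summed to 53.6 to 57.9 CPM in mimic and 52.8 to 58.7 CPM in control, mostly from Pdgfra and Pdgfrb, which moved in opposite directions. Pdgfra fell, with 19.9, 21 and 19.3 CPM in mimic and 29.9, 27.6 and 31.7 CPM in control libraries, while Pdgfrb and the low Lum rose. The part of such markers in the caveolar changes was not tested. Of the 6 lung epithelium markers, 4 had a row of counts, and Krt8 and Krt18 rose. Krt8 had 543, 569 and 547 CPM in mimic and 499, 490 and 486 CPM in control libraries. Krt18 was low, with 3.09, 3.47 and 4.41 CPM in mimic and 2.35, 1.9 and 1.64 CPM in control libraries. Epcam and Cdh1 were at most 0.149 CPM in any library.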

How the data were processed

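The authors deposited whole-number read counts for 24794 genes and FPKM values, rounded to 2 decimals, for 24494 genes, with a column for each of 6 libraries. Per the labels' protocols, RNA was captured on poly(A) beads and libraries were strand-specific. Per the submitters' processing notes, HISAT2, DESeq2 and GRCm39 were used. The sources used here give no versions, counting tool or strand setting. The test was edgeR's (version 4.0.16, R 4.3.3: filterByExpr, TMM, glmQLFit, glmQLFTest, Benjamini-Hochberg over 13779 genes). The SE is the log2 change divided by the square root of F. Libraries of a group differed by more than sampling noise (mean chi-square per gene 1.84 to 2.23). On simulated counts for mimic against control, 65.1% of 83 genes changed 1.2-fold, 68.5% of 54 changed 1.5-fold and 96.6% of 59 changed 2-fold were recovered, with 9 of 13437 unchanged genes called (13633 genes tested). Only 200 genes were given a change there, whereas 49.1% of genes were called in the data, so these rates may not hold for the data.

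Genes and lists were chosen with earlier results of these data known. From each list the text names some of the 5 called genes with the smallest adjusted p and of the 3 best expressed that did not pass, and, chosen after their values were seen, Snap29, Itsn1, Igf1r, Tgfbr1, Cavin4, Gm45667 and the other untested relatives. Seed matches were read from GENCODE M21 transcripts by gene ID, joining the 3' UTRs of all protein-coding transcripts. Alternatives were other scalings and filters, DESeq2 1.42.0, limma 3.58.1 on log2(FPKM + 1) and log2(FPKM + 0.1), a block on replicate number, leaving out each library in turn, and a threshold of 0.01.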

Additional observations from a re-analysis of the deposited data

How the results depend on the processing

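The log2 change of each of the 10 caveolar genes kept its sign in all 14 alternatives, from -1.66 to -1.52 for Cavin3, -1.24 to -1.11 for Ehd2, -0.98 to -0.75 for Cavin2, -0.32 to -0.25 for Cav1, -0.23 to -0.15 for Cav2 and 0.14 to 0.21 for Cavin1. These 6 genes passed in each, while the calls of Ehd1, Ehd4, Pacsin2 and Pacsin3 depended on the setting. Of 17 caveolar cargo genes (receptors, transporters and others), 7 passed in place of 11 with total counts, with DESeq2 and at an adjusted p under 0.01, and 5 with limma on FPKM at either pseudocount. With DESeq2, 3 lipid genes passed in place of 6 and 3 F-BAR genes in place of 6. The cause was not tested. The other totals of genes that passed stayed within 1.5 times, but their split by direction did not: with total counts 2 partners rose and 6 fell in place of 4 and 4, and 5 clathrin genes rose and 9 fell in place of 8 and 7. The labels do not say whether the replicate numbers pair the libraries. Correlations of same-numbered deviations were small (0.046, 0.041 and 0.063), but each library correlated best with its own number, a weak hint from the data only. With the replicate number as a block 9 caveolar genes passed in place of 8, the added one being Pacsin3, with 8 partners, 11 cargo, 6 lipid, 15 clathrin, 6 F-BAR and 8 clathrin-independent genes. Taking the transcript with the longest coding sequence left the best match of each caveolar gene as it was. Depth limits the relatives Cav3, Ehd3 and Pacsin1, which held too few counts to be tested.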
